A study of Mus musculus with 6 samples.

Results

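Prostaglandins are lipid mediators made from arachidonic acid. Phospholipases free arachidonic acid from membranes, cyclooxygenases turn it into prostaglandin H2, and terminal synthases make prostacyclin, prostaglandin E2 or prostaglandin D2 from that common intermediate. The products act on receptors at the cell surface, are taken up again by the carrier SLCO2A1 and are then inactivated in the cell by the dehydrogenase HPGD. In the kidney they act on vessel tone, renin release and the handling of salt and water, and ECs (endothelial cells) are a known source of prostacyclin.

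The 9 genes described here cover these steps in mouse: Pla2g4a for release, Ptgs1 and Ptgs2 for cyclooxygenases, Ptgis, Ptges and Ptgds for terminal synthases, Slco2a1 for the carrier, Hpgd for inactivation and Ptger4 for a receptor. They were looked up by gene name in a table of 55401 genes, and all 9 were found. They were selected on their levels in these same libraries, with Slco2a1 set against the synthesis enzymes, so the differences between the groups are given for them as a description. No p is given for them, and where a gene stands against the threshold of the fit over all genes is stated only to set it beside the share of all genes that passed. Whole-transcriptome RNA was sequenced from ECs of the adult kidney, sorted as CD31+ CD45- cells, from 3 mice labelled RbpjΔEC and 3 CTRL mice, 1 library per mouse. The RbpjΔEC mice carried Cdh5CreERT2 (Cre +/-), in which the Cdh5 promoter restricts a tamoxifen-dependent Cre to endothelium, together with Rbpj f/f, the floxed gene of the DNA-binding protein through which Notch receptors act. The CTRL mice were Cre-negative littermates (Cre -/-) with the same floxed alleles, so both groups share Rbpj f/f. All mice were male and received tamoxifen at 8 weeks of age in 5 doses of 1.5 mg, with a harvest 12 weeks after induction and a labelled age of 21 weeks.

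The total counts on genes were 39649171 to 47726850 per library, which puts 3 counts at 0.0634 to 0.0749 CPM (counts scaled to library size with TMM factors). CTRL 1 had counts on 33764 genes and the other 5 libraries on 25629 to 26785. Rbpj itself had counts of 1127 to 1408 in CTRL and of 1094 to 1294 in RbpjΔEC, so the groups overlapped. These counts cover the whole gene and not the floxed part alone, so the group of each library rests on its label. The Notch target Hey1 was lower in each library labelled RbpjΔEC (8.92 to 14.6 CPM) than in each CTRL library (16.7 to 22.6 CPM), with an adjusted p of 0.0722 that did not pass 0.05. The 10 pan-endothelial markers, among them Pecam1, Cdh5 and Kdr, were detected in every library, with a summed level of 16980 to 19020 CPM in CTRL and 15420 to 15840 CPM in RbpjΔEC.

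The sequences shown stand before the starts of a pair of genes, Slco2a1, which differed between the groups, and Ptges, the least abundant tested gene of the 9. They are taken from RefSeq on GRCm38.p6, whose promoter table held 8 of the 9 genes (Ptgis was not matched). Capitals mark motifs searched on both strands in the 250 bases before each start, namely the core letters bound by RBPJ (TGGGAA), the TATA box of core promoters with the letters TATAAA, a GC box with the letters GGGCGG and a cyclic AMP response element with the letters TGACGTCA. The first stretch is 30 bases around the TATA box of Slco2a1 at chr9:103008446-103008475, plus strand, which GENCODE M21 places inside an untranslated region of a longer Slco2a1 transcript. The second is the whole window before the Ptges start at chr2:30903298-30903547, minus strand, a start that lies inside the longer Ptges gene of GENCODE M21.
Slco2a1: atcgctgccactTATAAAaacttctgggcg
Ptges: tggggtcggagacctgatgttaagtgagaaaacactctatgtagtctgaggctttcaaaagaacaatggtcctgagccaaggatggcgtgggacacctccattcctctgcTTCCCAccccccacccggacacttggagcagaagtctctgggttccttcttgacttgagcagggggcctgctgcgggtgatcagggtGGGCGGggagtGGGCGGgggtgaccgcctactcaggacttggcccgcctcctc
The TATA box of Slco2a1 began 29 bases before the RefSeq start, and its window also held a GC box 106 bases before the start. The Ptges window held the RBPJ core letters on the opposite strand (TTCCCA as printed), 140 bases before the start, and GC boxes 53 and 42 bases before it. Of the 8 genes with a window, Ptges was the only one with the RBPJ core letters, which 21.6% of the 32851 promoters in the table hold. TATAAA is held by 12.4% of those promoters, GGGCGG by 32.7% and TGACGTCA by 1.55%. GC boxes also stood in the windows of Ptgs2 (1), Hpgd (1) and Ptger4 (4), while the Ptgs1 and Ptgds windows held none of the 4 motifs. TATAAA was found before 1 of the starts of Pla2g4a, on the opposite strand and 200 bases away, and TGACGTCA in none of the windows. A match describes the letters only and is not a measured binding site.

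Slco2a1 (ENSMUSG00000032548.14, chromosome 9 of GRCm38, 102988712 to 103096002, plus strand) encodes the carrier that takes prostaglandins into cells. It had 218.6, 207.7 and 223.6 CPM in CTRL 1 to 3 and 138.8, 135.8 and 156.4 CPM in RbpjΔEC 1 to 3. Each library labelled RbpjΔEC lay below each CTRL library, and the gap between the groups was wider than the spread within either. CTRL averaged 216.6 ± 8.17 CPM and RbpjΔEC 143.7 ± 11.1 CPM (SD, n = 3 each), or 66.3% of CTRL, with a log2 fold change of -0.59 (95% interval -0.75 to -0.43). These values rest on 8765, 9830 and 9444 counts in CTRL and 6225, 5695 and 6268 counts in RbpjΔEC. Fewer cells that express a gene and less RNA per cell cannot be told apart in sorted bulk samples. The summed pan-endothelial markers were also lower in every library labelled RbpjΔEC, with 4 of the 10 lower without overlap, beside 11.6% of all tested genes, and 0 called. Of the 10, Egfl7 and Erg had positive log2 fold changes of 0.22 and 0.06. Among 6 markers of arterial ECs, Gja5 (35.9 to 64.4 CPM in CTRL and 15.6 to 26.7 CPM in RbpjΔEC), Gja4 and Efnb2 were lower without overlap, Dll4 was higher without overlap, and 0 were called. The part of these markers in the Slco2a1 difference was not tested. In the fit over 18438 tested genes, Slco2a1 was the 1 gene of the 9 past an adjusted p of 0.05, where 1.13% of all tested genes passed in either direction and 0.559% passed as lower. The choice of the 9 genes used this contrast, so nothing is read from that count. Slco2a1 did not pass without RbpjΔEC 1, with a log2 fold change of -0.57.

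**Figure D1:**
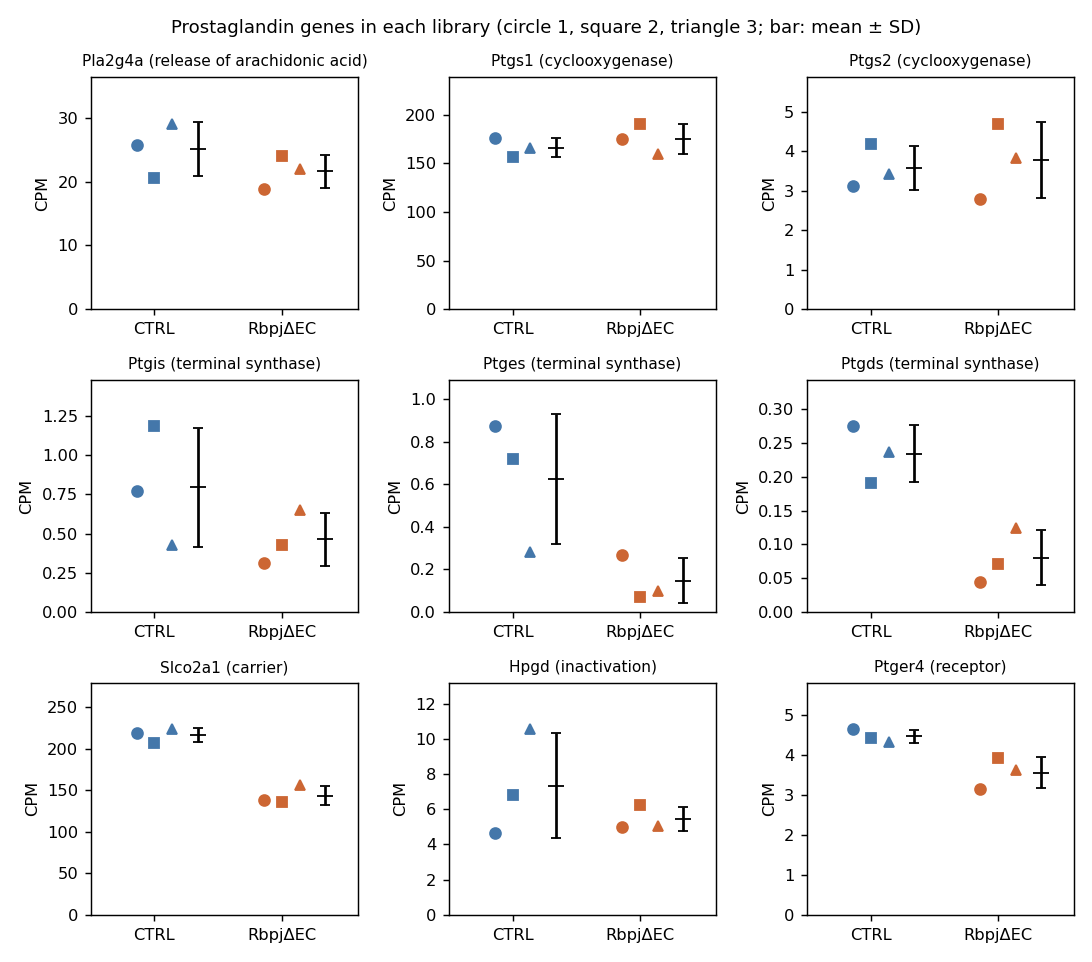
Level of each of the 9 prostaglandin genes in CPM, on a linear axis from 0, for CTRL (blue) and RbpjΔEC (orange) libraries, with the mean ± SD (n = 3) as a bar beside the points. The groups are apart, with RbpjΔEC below CTRL, for Slco2a1, Ptger4, Ptges and Ptgds, and they overlap for the other 5 genes.

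Pla2g4a (ENSMUSG00000056220.14, chromosome 1, 149829618 to 149961290, minus strand) encodes the cytosolic phospholipase that releases arachidonic acid. It had 25.7, 20.6 and 29.2 CPM in CTRL 1 to 3 and 18.8, 24.1 and 22.0 CPM in RbpjΔEC 1 to 3, and the groups overlapped. Its log2 fold change was -0.22, with a 95% interval from -0.52 to 0.08.

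Ptgs1 (ENSMUSG00000047250.13, chromosome 2, 36230426 to 36252272, plus strand) encodes cyclooxygenase 1, the constitutive form. Ptgs1 had 176.6, 156.5 and 166.1 CPM in CTRL 1 to 3 and 175.3, 191.1 and 159.8 CPM in RbpjΔEC 1 to 3. The groups overlapped, with means of 166.4 ± 10.02 CPM in CTRL and 175.4 ± 15.7 CPM in RbpjΔEC (SD, n = 3 each). The log2 fold change of Ptgs1 was 0.08, with a 95% interval from -0.10 to 0.25.

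Ptgs2 (ENSMUSG00000032487.8, chromosome 1, 150100031 to 150108227, plus strand) encodes cyclooxygenase 2, the inducible form. It had 3.12, 4.18 and 3.41 CPM in CTRL 1 to 3 and 2.79, 4.70 and 3.82 CPM in RbpjΔEC 1 to 3. The lowest and the highest of the 6 values both belonged to RbpjΔEC. The interval of its log2 fold change ran from -0.44 to 0.59 around 0.08, and its sign turned when CTRL 1 (-0.016) or RbpjΔEC 2 (-0.115) was left out. Ptgs2 is itself known as an immediate-early gene, and a list of 14 other such genes stood at 6006 to 7090 CPM in CTRL and 8052 to 9664 CPM in RbpjΔEC, with 7 of the 13 tested called higher (1.13% of all tested genes were called in either direction) and 12 of the 13 higher without overlap (11.4% of all tested genes). Ptgs2 did not separate the groups as these genes did. Pla2g4a and Ptgs2 lie head to head on chromosome 1, but are 138740 bases apart, with 3 other genes annotated wholly or partly between them. Neither Pla2g4a nor Ptgs2 had groups that separated.

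The terminal synthases were the scarcest of the 9 transcripts, in CPM and in CPM per kb of exon. Ptgis (ENSMUSG00000017969.13, chromosome 2, 167191805 to 167240604, minus strand), the prostacyclin synthase, had 31, 56 and 18 counts in CTRL 1 to 3 and 14, 18 and 26 counts in RbpjΔEC 1 to 3. These counts correspond to 0.794 ± 0.379 CPM in CTRL and 0.463 ± 0.171 CPM in RbpjΔEC (SD, n = 3 each), and the groups overlapped. The log2 fold change of Ptgis was -0.78, with an interval from -1.84 to 0.28. It was -0.379 without CTRL 2 and -1.100 without RbpjΔEC 3. The noncoding 1110018N20Rik overlaps Ptgis by 1004 bases on the opposite strand and had more counts than Ptgis in every library, 225 to 309 in CTRL and 195 to 272 in RbpjΔEC. Whether the counting used strand is not given in the sources used here, so reads of the 2 genes may not be kept apart.

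Ptges (ENSMUSG00000050737.13, chromosome 2, 30889471 to 30929863, minus strand), the microsomal prostaglandin E synthase, had 35, 34 and 12 counts in CTRL 1 to 3 and 12, 3 and 4 counts in RbpjΔEC 1 to 3. In CPM these were 0.873, 0.718 and 0.284 against 0.268, 0.0715 and 0.0998. Every library labelled RbpjΔEC was below every CTRL library, although the highest RbpjΔEC value and the lowest CTRL value were close and both came from 12 counts. The log2 fold change was -2.06 (95% interval -3.47 to -0.64) and did not pass the threshold over all genes. It was -2.83 without RbpjΔEC 1, and without a filter on low counts, where 3.75% of all genes passed, Ptges was among them. RbpjΔEC 2 and 3 were at or near the level of 3 counts, and Ptges passed the filter on low counts through its CTRL libraries.

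Ptgds (ENSMUSG00000015090.13, chromosome 2, 25466709 to 25470046, minus strand), a prostaglandin D synthase, had 11, 9 and 10 counts in CTRL 1 to 3 and 2, 3 and 5 counts in RbpjΔEC 1 to 3. Too few counts kept it out of the fit over all genes, and its values in the libraries labelled RbpjΔEC were all below those in CTRL. Summed over libraries, the ratio of RbpjΔEC to CTRL was 0.341 for Ptgds (exact 95% interval 0.149 to 0.716), 0.240 for Ptges (0.137 to 0.399) and 0.565 for Ptgis (0.402 to 0.785). These intervals cover counting error only and leave out the spread between mice.

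Hpgd (ENSMUSG00000031613.9, chromosome 8, 56294585 to 56321043, plus strand), which oxidises prostaglandins after uptake, had 4.64, 6.80 and 10.5 CPM in CTRL 1 to 3 and 5.02, 6.25 and 5.07 CPM in RbpjΔEC 1 to 3. The CTRL libraries spread over a wider range than the RbpjΔEC libraries, and the groups overlapped (log2 fold change -0.43, 95% interval -1.02 to 0.16). The log2 fold change was -0.075 without CTRL 3 and -0.675 without CTRL 1. Hpgd acts in the same removal path as Slco2a1.

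Ptger4 (ENSMUSG00000039942.15, chromosome 15, 5206661 to 5244187, minus strand) encodes EP4, a receptor of prostaglandin E2 that raises cyclic AMP. It had 4.64, 4.41 and 4.33 CPM in CTRL 1 to 3 and 3.15, 3.91 and 3.62 CPM in RbpjΔEC 1 to 3. All 3 RbpjΔEC values were lower than all 3 CTRL values, and the log2 fold change of -0.33 had an interval from -0.74 to 0.09. Ttc33, which overlaps Ptger4 by 11676 bases on the opposite strand, had 26.0 to 27.7 CPM in CTRL and 21.5 to 25.2 CPM in RbpjΔEC, likewise without overlap, and its part in the Ptger4 values was not tested. Of the genes that overlap one of the 9 or lie within 5000 bases of one and were tested, none passed the threshold.

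Of the 8 tested genes, 3 (Slco2a1, Ptges and Ptger4) were lower without overlap between the groups, beside 11.6% of all tested genes. None was higher without overlap, beside 11.4%. Ptges passed the filter on low counts through its CTRL libraries. It had 12 counts in both CTRL 3 and RbpjΔEC 1, so its lack of overlap rests on the scaling to library size. The sign of the log2 fold change was negative for 6 and positive for 2, and the median over the 8 genes was -0.38 beside 0.01 over all tested genes. These shares are a description, since the 9 genes were selected on the same values.

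Levels of different genes were compared as CPM per kb of exon. In CTRL the order was Ptgs1 (42.8 ± 2.58), Slco2a1 (15.99 ± 0.603), Hpgd (4.35 ± 1.77), Pla2g4a (3.94 ± 0.674), Ptgs2 (0.780 ± 0.120), Ptger4 (0.671 ± 0.0238), Ptgis (0.309 ± 0.148), Ptges (0.159 ± 0.0777) and Ptgds (0.142 ± 0.0256), each as the mean CPM per kb with its SD over 3 libraries. Hpgd and Pla2g4a overlapped over the CTRL libraries, as did Ptgs2 and Ptger4, Ptgis and Ptges, and Ptges and Ptgds. The other neighbours in this order did not. In RbpjΔEC the carrier stood at 10.6 ± 0.823 CPM per kb and Ptgs1 at 45.2 ± 4.03 CPM per kb (SD, n = 3 each). Per length, the sorted ECs thus held more transcript of cyclooxygenase 1 and of the carrier than of any other of the 9 genes, and the scarce terminal synthases were all under 1 CPM in most libraries. Exon lengths came from GENCODE M21 and count every annotated exon, so the longest genes, such as Slco2a1 with 13545 bases, can be understated.

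Slco2a1 was then set against the 6 synthesis genes (Pla2g4a, Ptgs1, Ptgs2, Ptgis, Ptges and Ptgds) within each library. Its CPM divided by their summed CPM was 1.05, 1.13 and 1.12 in the CTRL libraries and 0.703, 0.616 and 0.839 in the RbpjΔEC libraries. All CTRL libraries lay above 1 and all RbpjΔEC libraries below it, but the position of the value 1 depends on gene lengths and only the difference between the groups is meant here. The log2 ratio was 0.14 ± 0.055 in CTRL and -0.49 ± 0.22 in RbpjΔEC (SD, n = 3 each), a difference of -0.63. The summed enzymes themselves were at 207.3, 183.4 and 199.6 CPM in CTRL and 197.6, 220.4 and 186.4 CPM in RbpjΔEC, with overlap. Ptgs1 made up 83.2% to 88.7% of that sum in every library, so the ratio compares in the main Slco2a1 with Ptgs1. Without Ptgs1 in the denominator the difference was -0.37. When the mean of the 6 log2 CPM values replaced their sum, so that the scarce synthases weighed as much as Ptgs1, the difference was 0.028 with the opposite sign. That mean rests in part on Ptges and Ptgds, which had 2 to 12 counts in each RbpjΔEC library.

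**Figure D2:**
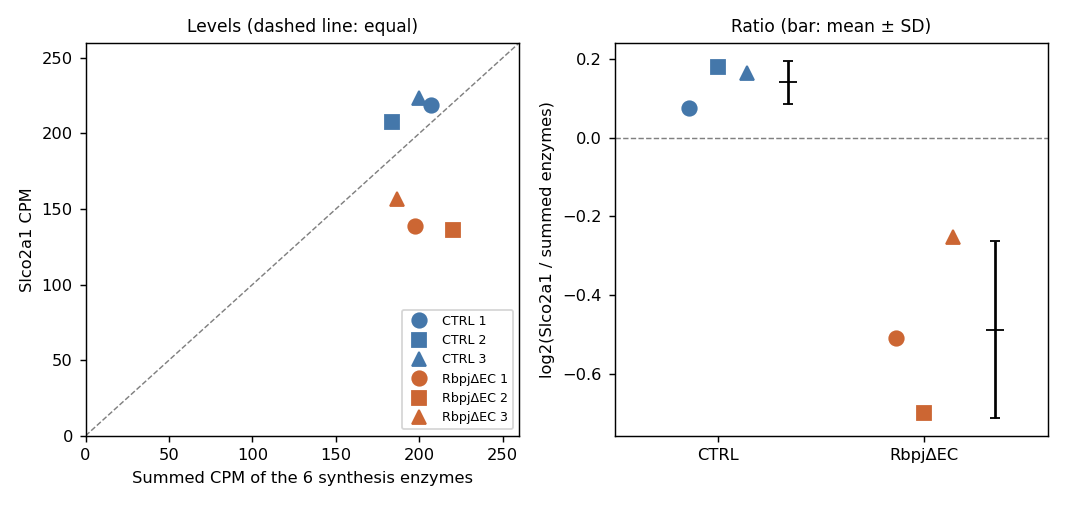
Left, CPM of Slco2a1 against the summed CPM of the 6 synthesis genes in each library, with a dashed line where both are equal. Right, log2 of their ratio with the mean ± SD (n = 3); CTRL libraries lie between 0.076 and 0.179 and RbpjΔEC libraries between -0.699 and -0.253.

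The genes whose levels followed Slco2a1 most closely over the 6 libraries were Col18a1 (Pearson's r 0.996), Elovl1 (0.995), Ipo8 (0.995), Syt11 (0.992) and Sod2 (0.991), out of 10441 tested genes with a mean of at least 5 CPM. The 6 points of each comparison fall into the 2 groups, so these r values describe the shared difference between the groups and no test is given. Col18a1, a basement membrane collagen, had 145, 142 and 156 CPM in CTRL 1 to 3 and 74.6, 71.1 and 83.4 CPM in RbpjΔEC 1 to 3, a log2 fold change of -0.95. Elovl1 was at -0.31, Ipo8 at -0.15, Syt11 at -0.45 and Sod2 at -0.26 on the same log2 scale. Within the prostaglandin genes r with Slco2a1 was 0.567 for Pla2g4a, 0.432 for Hpgd and -0.485 for Ptgs1, so none of these 3 followed the carrier as closely. Ptgs2, Ptger4, Ptgis, Ptges and Ptgds had means under 5 CPM and were not compared.

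The rest of the pathway was examined in 53 further genes of prostanoid and leukotriene metabolism, of which 35 were tested. Mgll was the only gene of the 35 past an adjusted p of 0.05, and it was lower, where 0.559% of all tested genes were called lower. Without overlap between the groups were 2 genes that were higher and 4 that were lower, beside 11.4% and 11.6% of all tested genes. At an unadjusted p under 0.05, 2 were higher and 4 lower, where 8.88% of all tested genes were higher and 8.62% lower, and the median log2 fold change was -0.03. DESeq2 called 5 of the 35, where it called 5.12% of all tested genes. In edgeR's fit the count was 0 without CTRL 1, CTRL 3, RbpjΔEC 1 or RbpjΔEC 2, 3 without CTRL 2 and 2 without RbpjΔEC 3.

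Among 18 other genes of arachidonate release, 9 were tested and 1 passed. Mgll encodes monoacylglycerol lipase, which yields arachidonic acid from the endocannabinoid 2-arachidonoylglycerol. Mgll had 210.8, 191.5 and 212.7 CPM in CTRL 1 to 3 and 159.0, 142.9 and 158.9 CPM in RbpjΔEC 1 to 3, and no library of one group reached the other. Its log2 fold change was -0.42 (SE 0.0733, Benjamini-Hochberg adjusted p = 0.0239, edgeR's quasi-likelihood test). The call was lost in the edgeR fit when CTRL 1 (adjusted p = 0.0941), CTRL 3 (0.121), RbpjΔEC 1 (0.0970) or RbpjΔEC 2 (0.0991) was left out. Plaat3, a phospholipase, had 51.8 CPM in CTRL and 47.0 CPM in RbpjΔEC, and Daglb, which makes 2-arachidonoylglycerol, had 13.9 and 12.6 CPM, both with overlap between the groups. Of the 18 genes, 11 were under 1 CPM in every library.

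Of 7 other synthesis enzymes 6 were tested and none passed in edgeR's test, with 1 higher and none lower at an unadjusted p under 0.05. That gene, Akr1b3, an aldose reductase that can also make prostaglandin F2α, had 16.6, 19.5 and 15.7 CPM in CTRL 1 to 3 and 22.5, 24.9 and 24.4 CPM in RbpjΔEC 1 to 3. The groups did not overlap (log2 fold change 0.47, SE 0.106, adjusted p = 0.0582 in edgeR's test), and DESeq2 gave an adjusted p of 0.00809. Akr1b3 also passed in edgeR's fit without CTRL 2 (adjusted p = 0.0195). Ptges3, a cytosolic prostaglandin E synthase better known as a co-chaperone, had 56.8 CPM in CTRL and 55.8 CPM in RbpjΔEC. Cbr1, a carbonyl reductase that acts on prostaglandin E2, had 17.5 and 16.4 CPM, and both genes overlapped between the groups.

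The prostanoid receptors other than Ptger4 were 8 genes, 5 of them tested, and none passed in edgeR's test, with 2 lower and none higher at an unadjusted p under 0.05. Tbxa2r, the thromboxane receptor, had the highest CPM of these receptors, at 67.5 in CTRL and 58.2 in RbpjΔEC (log2 fold change -0.21, adjusted p = 0.340 from edgeR's test). Ptgfr, the receptor of prostaglandin F2α, had 7.06, 3.25 and 3.43 CPM in CTRL 1 to 3 and 0.981, 1.14 and 2.57 CPM in RbpjΔEC 1 to 3. Its groups did not overlap, with a log2 fold change of -1.55 (SE 0.433, adjusted p = 0.118 from edgeR's test and 0.00345 from DESeq2). Ptgfr passed in edgeR's fit without RbpjΔEC 3 (adjusted p = 0.0154), and Ptger3 passed without CTRL 2. Ptger3, which encodes the EP3 receptor and was picked out after its values were seen, had 4.61, 3.17 and 3.74 CPM in CTRL and 2.07, 1.12 and 2.00 CPM in RbpjΔEC (log2 fold change -1.15, SE 0.281, adjusted p = 0.0738 from edgeR's test and 0.00530 from DESeq2). Ptger1, the EP1 receptor, had 5.11 CPM in CTRL and 5.86 CPM in RbpjΔEC, with overlap. Ptgir, the prostacyclin receptor, also chosen after its values were seen, had 28, 17 and 1 counts in CTRL 1 to 3 and 12, 0 and 13 counts in RbpjΔEC 1 to 3, with overlap between the groups (log2 fold change -0.85, 95% interval -3.35 to 1.64).

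Of 6 other carriers and inactivation enzymes, all tested, none passed in edgeR's test, with 1 higher and none lower at an unadjusted p under 0.05. Abcc4, an exporter of prostaglandins, had 117.2 CPM in CTRL and 115.3 CPM in RbpjΔEC, with a log2 fold change of -0.02 and an interval from -0.19 to 0.14. Slco3a1, a carrier of the same family as Slco2a1, had 103.1 and 95.9 CPM, and Zadh2, a reductase of prostaglandin metabolites, had 39.5 and 34.3 CPM, both with overlap. Slco2b1, another carrier of that family and picked out after its values were seen, went the other way from Slco2a1, at 3.62, 3.44 and 3.79 CPM in CTRL 1 to 3 and 6.67, 5.22 and 7.31 CPM in RbpjΔEC 1 to 3. Its log2 fold change was 0.82 (SE 0.187, adjusted p = 0.0600 from edgeR's test and 0.00306 from DESeq2).

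In the lipoxygenase and leukotriene branch 9 of 14 genes were tested and none passed in edgeR's test, with 1 lower and none higher at an unadjusted p under 0.05. Alox12, a lipoxygenase of platelets and other cells, had 58.6 CPM in CTRL and 48.8 CPM in RbpjΔEC (log2 fold change -0.26, adjusted p = 0.255 from edgeR's test). Lta4h, which makes leukotriene B4, had 77.4 and 75.6 CPM, and Cysltr2, a receptor of cysteinyl leukotrienes, had 47.9 and 51.4 CPM. Both overlapped between the groups.

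**Figure D3:**
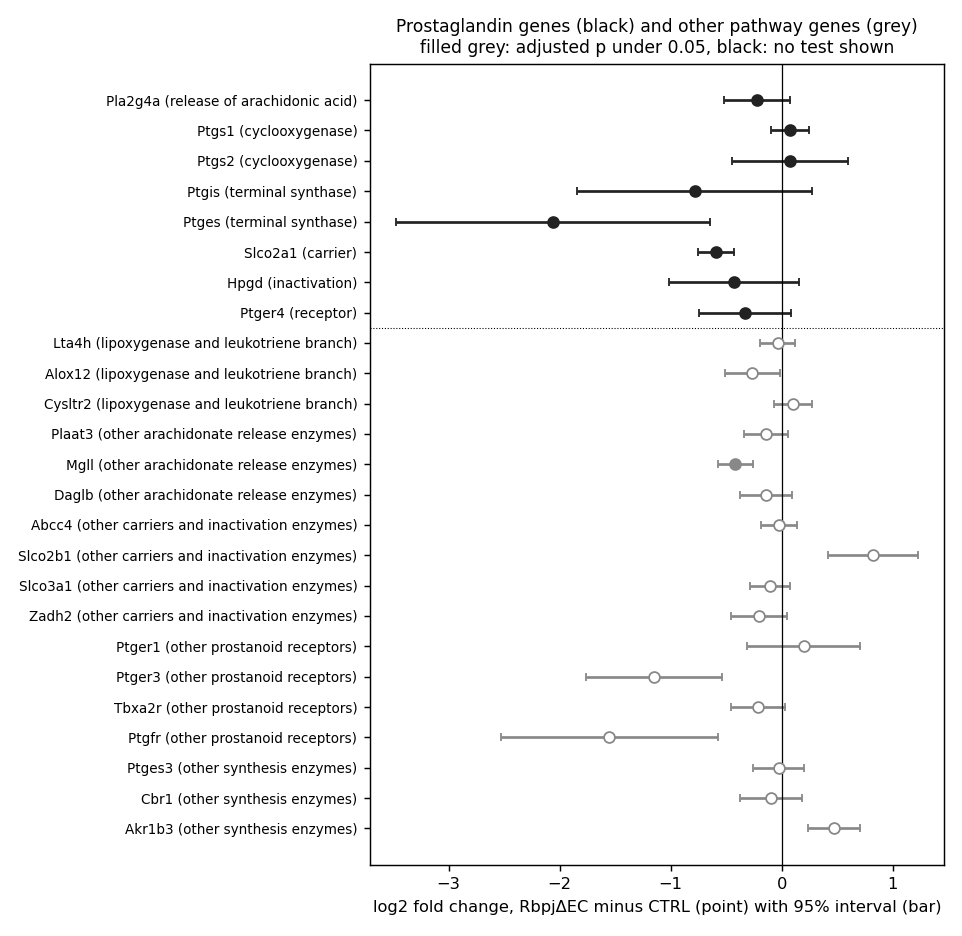
Log2 fold change (RbpjΔEC minus CTRL) with its 95% interval for the 8 tested prostaglandin genes (black) and, of the other pathway genes, the most abundant of each list, those called, Ptger3 and Slco2b1 (grey), with a filled grey point past an adjusted p of 0.05 over all tested genes and no test shown for the black points. Mgll, at -0.42, is the filled grey point, Slco2a1 lies at -0.59, and the widest interval drawn is that of Ptges.

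The summed markers of several other kidney cells were lower in the libraries labelled RbpjΔEC. The 9 mural markers summed to 85.3 to 112 CPM in CTRL and 35.1 to 56.9 CPM in RbpjΔEC, and 3 of the 8 tested (Acta2, Myh11 and Rgs5) were called lower, where 0.559% of all tested genes were, a share that also stands beside the lists that follow. The 7 fibroblast markers summed to 4.69 to 7.33 CPM in CTRL and 1.61 to 2.92 CPM in RbpjΔEC, with Pdgfra called lower among 3 tested and 5 of the 7 under 1 CPM in every library. The 6 collecting duct markers summed to 11.0 to 30.2 CPM in CTRL and 2.65 to 5.62 CPM in RbpjΔEC, with 2 of 6 called lower (Scnn1g and Hsd11b2). All these sums were lower in every library labelled RbpjΔEC, as were Ptges, Ptgds, Ptger3 and Ptgfr, while Ptgis overlapped between the groups. The 3 markers of thick limb and macula densa (Slc12a1, Umod and Nos1), the latter being cells in which Ptgs2 is well known, and Slc12a3 of the distal convoluted tubule together summed to 209.1 to 386.8 CPM in CTRL and 50.1 to 159.3 CPM in RbpjΔEC with 0 of 4 called. The part of these cells in the scarce genes was not tested.

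**Figure D4:**
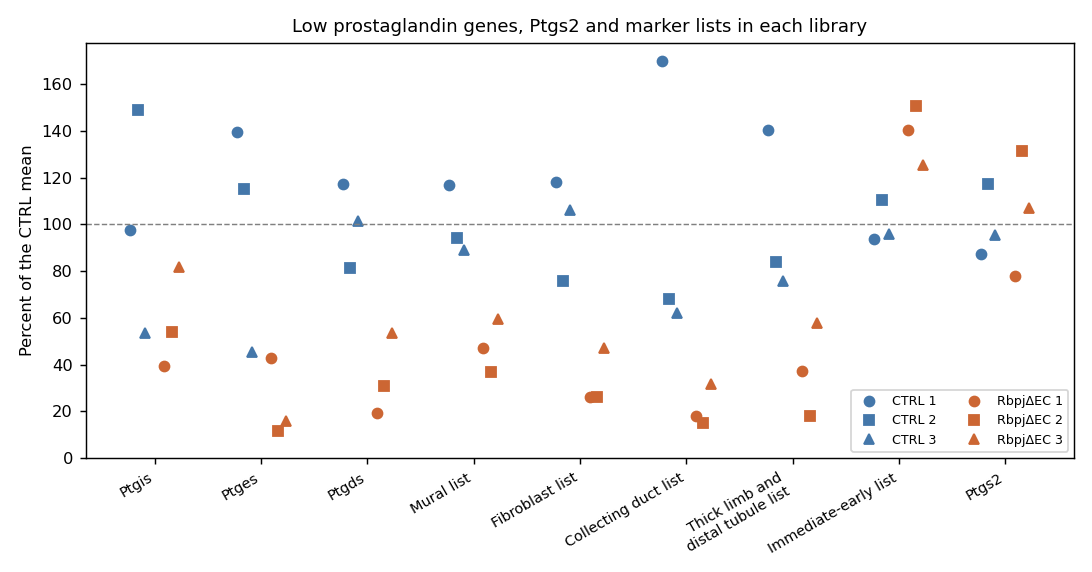
Level in each library as a percentage of the CTRL mean (linear axis) for Ptgis, Ptges, Ptgds and Ptgs2 and for the summed CPM of 5 marker lists. Ptges, Ptgds and the mural, fibroblast, collecting duct and thick limb with distal tubule lists lie lower in RbpjΔEC with no overlap, the immediate-early list lies higher with no overlap, and Ptgis and Ptgs2 overlap.

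The 5 proximal tubule markers overlapped, at 26.9 to 77.2 CPM in CTRL and 55.2, 61.8 and 251.4 CPM in RbpjΔEC 1 to 3. None of the 5 was called. The 4 podocyte markers (184.8 to 200.2 and 179.3 to 216.8 CPM, nearly all of it Synpo) and the 5 platelet markers (4.90 to 8.98 and 5.63 to 7.14 CPM) overlapped too, with 0 called. Platelets are known to be rich in Ptgs1 and Alox12. The 6 arterial EC markers summed to 1599 to 1715 CPM in CTRL and 1560 to 1645 CPM in RbpjΔEC, a sum in which Efnb2 and Dll4 outweigh Gja4 and Gja5, and at an unadjusted p under 0.05 in edgeR's test 3 of them were lower and 1 higher. Nearly all of the summed lymphatic EC markers was Flt4 (597 to 682 CPM in CTRL and 624 to 659 CPM in RbpjΔEC), while Lyve1 was lower without overlap (0.923 to 1.42 and 0.310 to 0.774 CPM) and Prox1 higher without overlap (7.88 to 9.73 and 9.83 to 10.7 CPM), with 0 of the 4 markers called. The 7 macrophage markers differed among themselves. Cd68 was called higher, at 6.98 to 12.3 CPM in CTRL and 22.1 to 25.1 CPM in RbpjΔEC, and it was the largest part of their sum, which was 14.2 to 15.1 CPM in CTRL and 23.8 to 28.0 CPM in RbpjΔEC. The other 3 tested macrophage markers had negative log2 fold changes (Csf1r -1.57, Lyz2 -1.25 and C1qa -0.21), the median of the 4 tested was -0.73, and 4 of the 7 were under 1 CPM in every library. The 6 lymphocyte markers were all under 1 CPM in every library, and Cd3e was at 0 in all of them.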

How the data were processed

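RNA of sorted kidney ECs was measured in 3 CTRL and 3 RbpjΔEC mice. The authors prepared stranded total RNA libraries and, per the labels and the study's methods, trimmed reads with Trim Galore (0.6.4), aligned them with STAR (2.6.1d) to GRCm38 and counted them per gene with featureCounts (Subread 1.6.4) on a GENCODE annotation later than the M21 release used here for positions. They deposited whole-number counts without normalization. The deposited table matched M21 by ID and version for 54349 of 55401 genes. Groups came from the labels. The 9 genes and all lists were chosen with earlier results of these data known.

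Counts were scaled by TMM and compared with edgeR (4.0.16, R 4.3.3) through filterByExpr with a minimum count of 10, robust glmQLFit and glmQLFTest, and p was adjusted by Benjamini-Hochberg over 18438 genes and a threshold of 0.05. SE and 95% intervals come from the quasi-likelihood F. DESeq2 1.42.0 (Wald test) was an alternative. Log2 CPM for correlations used a prior count of 2. The fit was tested on simulated data. Alternatives covered scaling, filter, test, replicate block, each library left out and the denominator of the ratio. Named were the 9 genes, called genes and the 3 most abundant of each pathway list, the 5 genes most like Slco2a1, and genes overlapping or near the 9. Each library is 1 mouse, and no 2 libraries of a group agreed within counting noise.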

Additional observations from a re-analysis of the deposited data

How the results depend on the processing

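The number of all tested genes past the threshold was 209 and was moved most by the filter, the test and single libraries, to 1436 without a filter on low counts, 944 with DESeq2, 344 with the replicate block, and 21 (without RbpjΔEC 1) to 700 (without CTRL 2) when 1 library was left out. Under library size alone 159 genes passed as higher and 82 as lower, in place of 106 and 103, and this scaling moved the median log2 fold change of all genes to 0.05. Of the 9 prostaglandin genes, 1 passed, 2 without a filter (Ptges was added), and 0 (without RbpjΔEC 1) to 1 when 1 library was left out. The log2 fold change of Slco2a1 was between -0.66 and -0.55 over all alternatives. Of the other pathway genes 1 passed, 3 with library size alone, 5 without a filter, 5 with DESeq2, 2 with the replicate block (Mgll and Ptger3) and 0 to 3 when 1 library was left out.

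Same-numbered CTRL and RbpjΔEC libraries deviated together with correlations of 0.023, 0.009 and 0.005, beside -0.063 to 0.048 between libraries of different numbers. With 3 libraries per group, these values cannot decide whether the mice were paired. The labels do not state a pairing, so the block is given as an alternative only. The difference in the log2 ratio of Slco2a1 to the synthesis genes was -0.627, -0.370 without Ptgs1, 0.028 with the mean log2 CPM, and -0.744 to -0.521 when 1 library was left out. The reversal under the mean follows from the equal weight it gives to the scarce Ptgis, Ptges and Ptgds.

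Of 297 alternative log2 fold changes of single genes, 286 kept the sign and 11 turned it, in 5 genes whose value was near 0. With library size alone the log2 fold change was 0.016 for Ptges3, 0.020 for Abcc4 and 0.009 for Lta4h. When 1 library was left out it was -0.115 to 0.252 for Ptgs2 (under 0 without CTRL 1 or RbpjΔEC 2), -0.095 to 0.102 for Ptges3 (above 0 without CTRL 2 or RbpjΔEC 1), -0.197 to 0.004 for Cbr1 (above 0 without RbpjΔEC 3), -0.062 to 0.025 for Abcc4 (above 0 without CTRL 1 or RbpjΔEC 1) and -0.065 to 0.016 for Lta4h (above 0 without RbpjΔEC 3). The cause of the moved counts was not tested. Few counts limit the values of Ptgis, Ptges, Ptgds and Ptgir.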
